A study of Equus caballus with 9 samples.

Results

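The 208 genes described here were the most abundant transcripts of 9 horse tenocyte cultures. They were selected on their rounded counts, as the rows that stood among the 100 highest of at least 1 of the 9 libraries, out of 21689 rows in all. Rows with 3 counts or fewer in each ESC-derived library, or in each primary library, were to be left out. Of the rows among the 100 highest, 0 met that condition. Because the counts themselves chose the members, their abundance, their classes and their differences between ESC-derived and primary libraries are given as a description. Calls from a fit over all genes are printed beside the share of all genes called, and nothing is read from them.

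Tenocytes are the fibroblast-like cells of tendon, which lay down and maintain its collagen-rich matrix. In the mRNA of cultured fibroblast-like cells, a small set of very abundant transcripts usually takes a large share of the reads, and genes of protein synthesis, the cytoskeleton, energy metabolism and secreted matrix are typical of such sets. TGF-β3, a growth factor used to drive stem cells towards tendon, is known to raise matrix genes. The count table gives Ensembl identifiers without names, and 0 of them were matched to a symbol, so none of the members could be assigned to these groups and the tenocyte label could not be checked against marker genes.

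The study held 3 libraries from tenocytes derived from embryonic stem cells (ESCs), 3 from fetal tenocytes at gestation days 319, 320 and 321, and 3 from adult tenocytes of horses aged 2 to 6 years. Fetal and adult cultures, both called primary below, were at passages 3 to 7 in a high-glucose medium containing serum. The ESC lines, at passages 18 to 22, had been kept on inactivated mouse feeder cells with leukaemia inhibitory factor, and were then grown without either in another serum-containing medium with 20 ng/ml TGF-β3 for 14 days. Origin, passage, medium, TGF-β3 and earlier feeder culture cannot be told apart between ESC-derived and primary libraries. Each group had 3 lines, which the series description calls independent. Library totals ran from 20166695 to 23767636 rounded counts. In bulk cultures, fewer cells of a type and less RNA per cell cannot be told apart.

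Members fell into 4 classes by the libraries in which they reached the 100 highest counts. A core of 34 genes did so in all 9 libraries. Another 74 did so in at least 1 ESC-derived library and in no primary library, and 79 did so in at least 1 primary library and in no ESC-derived library. The remaining 21, called mixed, reached the 100 highest in some libraries of both kinds. At rank 100 the libraries held between 20685 and 26646 counts (1019 to 1121 CPM, the count per 1000000 counts of the library), and at rank 101, just outside, between 20627 and 26100 (1016 to 1098 CPM). Counts were not divided by transcript length, so a rank orders reads and not molecules.

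Together the members held 32.2% ± 2.00 of the counts of ESC-derived libraries, 43.1% ± 2.35 of fetal and 43.7% ± 3.42 of adult ones (SD, n = 3 each). The core held 13.6%, 13.9% and 12.6% of counts in ESC-derived replicates 1, 2 and 3. In fetal replicates 1, 2 and 3 it held 18.8%, 16.8% and 18.0%, and in adult replicates 17.3%, 19.2% and 17.6%. The core's share was thus lower in each ESC-derived library than in any primary library.

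The 74 ESC-derived-only members held 13.0%, 14.2% and 11.4% of the 3 ESC-derived libraries and 1.48% to 1.92% of the 6 primary ones. The 79 primary-only members held 22.7%, 21.5% and 18.6% of the fetal libraries and 25.2%, 20.7% and 17.8% of the adult ones, against 2.66% to 2.82% of the ESC-derived ones. Fetal and adult ranges overlapped in both classes. The mixed members took 3.14% to 3.45% of ESC-derived and 2.40% to 2.75% of primary libraries. A library's single most abundant gene took 1.92% to 2.54% of counts in ESC-derived and 2.39% to 4.43% in primary libraries.

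**Figure D1:**
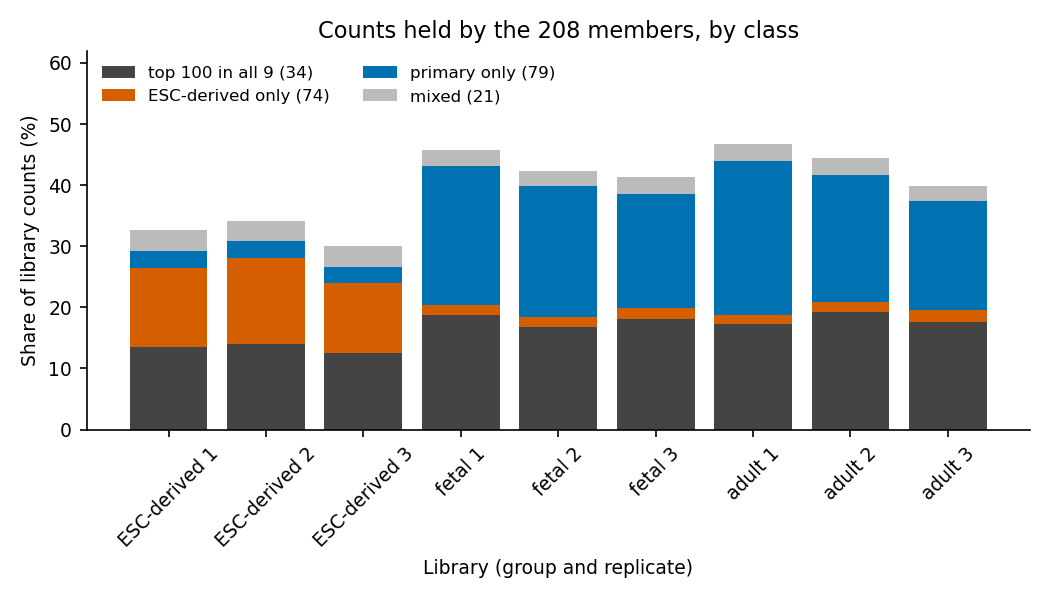
Share of each library's counts (y axis, %) held by the 208 members, with stacked bars for the 4 classes and 1 bar per library (x axis). The core of 34 is the lowest block in every bar, between 12.6% and 19.2%. The block of ESC-derived-only members is larger than that of primary-only members in the 3 ESC-derived libraries, and smaller in the 6 primary libraries.

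The core did not mean equal levels. Core members moved by 4 to 66 ranks between their best and worst library, with a median span of 30.5. Only 3 of them were among the 10 highest of all 9 libraries, and 14 were among the 50 highest of all 9. The core member with the highest mean level stood at 25378, 24726 and 19224 CPM in ESC-derived replicates 1 to 3. In fetal replicates it stood at 23398, 16864 and 24586 CPM, and in adult replicates at 22371, 11506 and 15757 CPM. It was the most abundant row of each ESC-derived library, and its levels overlapped between ESC-derived and primary libraries.

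The core member that differed most between the kinds was at 1685, 1608 and 1838 CPM in ESC-derived replicates, 18007, 16161 and 14619 CPM in fetal replicates and 20211, 21758 and 23894 CPM in adult replicates. The groups did not overlap, and its log2 fold change of ESC-derived over primary was -3.77 ± 0.22 (SE). At the other end, a core member was at 6249, 7091 and 6055 CPM in ESC-derived replicates and between 1876 and 2756 CPM in the 6 primary libraries, a log2 fold change of 1.20 ± 0.19 (SE). Both were chosen after their values were seen. Every ESC-derived library lay below the primary range for the first of these members and above it for the second.

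All 208 members were among the 13462 genes tested by edgeR in a fit of all 9 libraries, with ESC-derived compared against the mean of fetal and adult and calls made at an adjusted p under 0.05. In this comparison 31.4% of all tested genes were called higher and 32.4% lower in ESC-derived cultures. Of the core, 2 were called higher and 21 lower, and 11 were called in neither direction. The core's median log2 fold change was -0.86, against -0.02 over all tested genes, and 21 of the 34 differed by less than 2-fold. Scaling by total counts alone in place of TMM moved the median of all tested genes from -0.02 to 0.28. With total counts alone, 5346 of the 13462 tested genes were called higher and 3272 lower. The same scaling gave 3 core members higher and 20 lower, with a core median of -0.56.

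Of the 74 ESC-derived-only members, 65 were called higher and 0 lower, and of the 79 primary-only members 75 were called lower and 0 higher. In the mixed class 2 were called higher and 5 lower. Since the classes were defined on these counts, nothing is read from those numbers. Counting instead the genes whose libraries did not overlap, on TMM-scaled CPM, gave 29% of all tested genes higher and 30.6% lower. By that rule 2 core members were higher and 21 lower, 63 ESC-derived-only members were higher, and 74 primary-only members were lower.

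**Figure D2:**
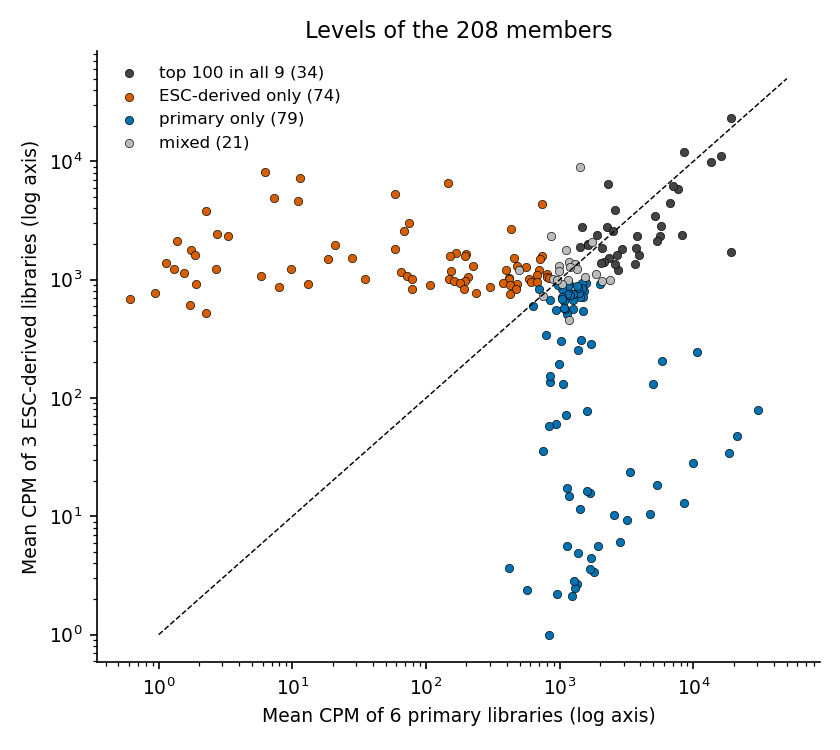
Mean CPM of the 3 ESC-derived libraries (y axis, log) against the mean of the 6 primary libraries (x axis, log) for each of the 208 members, coloured by class, with a dashed line at equal levels. The 74 ESC-derived-only members run from beside the line to under 1 CPM in primary libraries, and the 79 primary-only members run down to about 1 CPM in ESC-derived ones.

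The 74 ESC-derived-only members were of unlike kinds. Their log2 fold changes had a median of 3.10 and extremes of 0.02 and 10.9. At least a 16-fold difference was found for 32 of them, and 17 differed by less than 2-fold. By best rank in any primary library, 14 stood between 101 and 200, 16 between 201 and 500, 12 between 501 and 1000, 10 between 1001 and 5000, and 22 beyond 5000. The first 14 therefore came within rank 200 in some primary library, but not always in all of them. The last 22 were far down the list in every primary library. Median mean levels were 1167 CPM in ESC-derived and 147 CPM in primary libraries.

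ENSECAG00000000651 had the highest mean level of the class. It was at 7828, 12994 and 3431 CPM in ESC-derived replicates 1, 2 and 3. In fetal replicates it was at 14.1, 15.1 and 1.85 CPM, and in adult replicates at 1.56, 1.65 and 3.36 CPM. Its rank was 6, 2 and 15 in the ESC-derived libraries and between 6800 and 11150 in the primary ones. ESC-derived lines themselves differed for this gene, with replicate 2 highest and replicate 3 lowest, and still no library of one kind came near the other kind. The log2 fold change was 10.5 ± 0.77 (SE), and without ESC-derived replicate 2 it was 9.88.

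ENSECAG00000021775 varied less between the ESC-derived lines, at 7021, 8072 and 6591 CPM. Its fetal levels were 19.8, 24.6 and 5.98 CPM and its adult levels 4.50, 6.34 and 6.99 CPM. As for the previous gene, fetal replicates 1 and 2 were above the other 4 primary libraries. Its log2 fold change of ESC-derived over primary was 9.20 ± 0.45 (SE).

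Primary-only members covered the same kind of range. Log2 fold changes of ESC-derived over primary had a median of -2.95 and extremes of -9.80 and -0.02. Among the 79, 38 differed by at least 16-fold and 15 by less than 2-fold. By best rank in any ESC-derived library, 27 stood between 101 and 200, 12 between 201 and 500, 5 between 501 and 1000, 9 between 1001 and 5000, and 26 beyond 5000. Median mean levels were 1269 CPM in primary and 195 CPM in ESC-derived libraries, and 32 of the 79 still exceeded a mean of 500 CPM in the latter.

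ENSECAG00000013693 was the leading gene of 4 of the 6 primary libraries and the second in the other 2. Its levels were 41311, 29777 and 22070 CPM in fetal replicates and 44257, 29573 and 16398 CPM in adult replicates. ESC-derived replicates held 95.6, 101 and 42.3 CPM, where it ranked 2095, 1863 and 4631. Fetal and adult libraries overlapped throughout, and the ESC-derived libraries lay far below both. The log2 fold change of ESC-derived over primary was -8.88 ± 0.71 (SE).

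ENSECAG00000024740 followed at 26436, 19414 and 14943 CPM in fetal and 27664, 22089 and 15895 CPM in adult replicates. ESC-derived replicates held 64.0, 46.1 and 33.7 CPM. Its log2 fold change was -9.09 ± 0.54 (SE). Here too the fetal and adult ranges overlapped, and every ESC-derived library lay far below them.

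**Figure D3:**
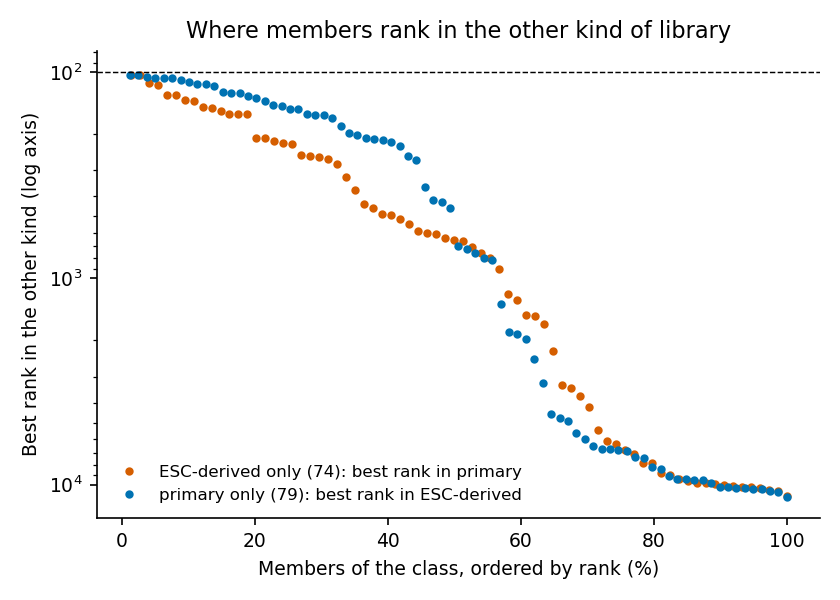
Best rank that each ESC-derived-only member reached in any primary library, and each primary-only member in any ESC-derived library (y axis, log, highest ranks at the top), with members ordered along the x axis as a percentage of their class and a dashed line at rank 100. In both classes points run from rank 103, just past the line, down to ranks 11392 and 11414.

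Membership of these classes was often decided by part of the lines. Of the ESC-derived-only members, 30 reached the 100 highest in all 3 ESC-derived libraries, 17 in 2 and 27 in 1. The 30 found in all 3 had a median log2 fold change of 5.52, against 2.50 for those found in 2 and 2.06 for those found in 1. Among primary-only members, 30 reached it in all 6 primary libraries and 14 in 1, with median log2 fold changes of -6.37 and -2.69. Between these ends there was no steady order, with medians of -4.19, -4.08, -1.44 and -1.11 for the 7, 6, 12 and 10 members found in 2, 3, 4 and 5 primary libraries. Reaching the 100 highest in more libraries of a kind itself asks for high counts there, and those counts enter the fold change. Nothing is therefore read from the order of these medians. Genes that entered through a single library numbered 3, 13 and 11 for ESC-derived replicates 1, 2 and 3, 1, 1 and 6 for fetal replicates, and 3, 2 and 1 for adult replicates.

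Leaving a library out of the choice gave a reading in data that the choice had not used. Members that were in the 100 highest of every other library of the same kind, chosen without the library in question, numbered 76, 85 and 85 for ESC-derived replicates 1, 2 and 3. Of these, 75 in each case were also among the 100 highest of the library left out. Over the 6 primary libraries left out in turn, 408 of 421 such readings were recovered (96.9%), and over the 3 ESC-derived ones 225 of 246 (91.5%). The recovered genes were the same each time, being the 75 common to all 3 ESC-derived or the 68 common to all 6 primary libraries. Only the number not recovered could differ between omissions. The readings are therefore not independent of each other, and the percentages are a description.

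Core genes chosen from 8 libraries stayed within rank 187 in the library left out. Genes chosen as ESC-derived-only from the other libraries, and among the 100 highest in both remaining ESC-derived lines, were also among the 100 highest of the ESC-derived library left out for 30 of 31, 30 of 39 and 30 of 37. Their worst rank there was 108, 160 and 166. The corresponding primary-only genes did so in 180 of 190 readings, mostly of the same genes, with a worst rank of 162. In each of these 2 classes the recovered genes were the same 30 each time.

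Sharing depended on how far down the list was read. Among the 10 highest rows of each library, 3 were common to all 9 libraries (30%), and among the 1000 highest, 443 were (44.3%). The lowest percentage was 25%, at the 20 highest. At 100 rows, 75 were common to the 3 ESC-derived libraries, 74 to the 3 fetal, 83 to the 3 adult and 68 to all 6 primary ones. The counts for 3 and for 6 libraries are not like for like, since a gene must pass in more libraries.

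**Figure D4:**
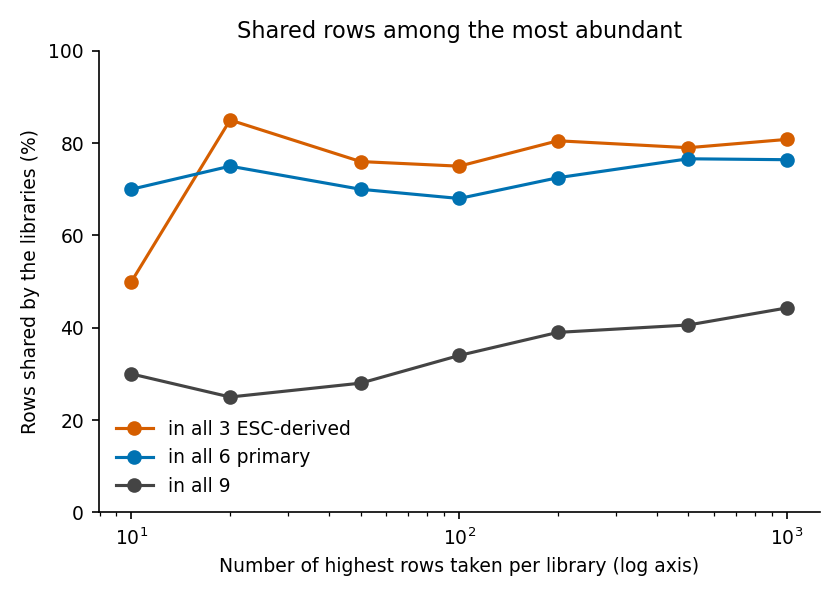
Percentage of the highest rows (y axis) common to all 3 ESC-derived, all 6 primary or all 9 libraries, for 10 to 1000 rows taken per library (x axis, log). The line for all 9 libraries stays between 25% and 44.3%. It cannot lie above the lines for each kind, since a row common to all 9 libraries is also common to each kind.

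By the medians that follow, lines of a group were closest for the core. The core had to reach the 100 highest in all 9 libraries, which itself limits how far its lines can differ. Nothing is therefore read from that order. The highest library of a group exceeded the lowest by a median of 1.23-fold in ESC-derived, 1.35-fold in fetal and 1.39-fold in adult libraries for the 34 core genes. For ESC-derived-only members the median was 1.38-fold among the ESC-derived lines, and for primary-only members 1.45-fold among fetal and 1.46-fold among adult lines. Over all tested genes these medians were 1.37-fold, 1.42-fold and 1.44-fold. Single members varied far more. One of the mixed members, singled out for its spread once values were known, stood at 1193 CPM in ESC-derived replicate 1 but at 22.1 and 164 CPM in replicates 2 and 3, and between 844 and 1590 CPM in primary libraries. That gene counted as abundant in an ESC-derived culture through 1 line.

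A pair of ESC-derived-only members, also chosen after the values were seen, were abundant through ESC-derived replicate 3. The first was at 157, 40.5 and 1366 CPM in ESC-derived replicates 1, 2 and 3, and the second at 156, 31.4 and 1628 CPM. Both were within 0.252 to 5.55 CPM in every primary library.

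Among the mixed members, the highest in ESC-derived cultures was at 9591, 6057 and 11202 CPM there and between 852 and 1996 CPM in primary libraries. Its log2 fold change was 2.33 ± 0.30 (SE), and it missed the 100 highest in 1 of the 6 primary libraries. Of the 21 mixed members, 14 differed by less than 2-fold between the kinds.

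Late fetal and adult cultures shared most of their abundant transcripts, 68 of the 100 highest being common to all 6 libraries. For fetal against adult, edgeR called 0 of the 208 members and 0% of all tested genes. At an unadjusted p under 0.05 there were 21 members (10.1% of the 208), beside 4.32% of all tested genes. DESeq2 called 6 members, beside 0.373% of the genes it tested. Each of the 6 was ESC-derived-only and higher in fetal libraries. That class was selected on high ESC-derived counts, so nothing is read from these calls. Fetal and adult libraries were fully separate for 13 members, 6.25% of the 208, beside 7.13% of all tested genes. The median absolute log2 difference was 0.19 for the core, 0.18 for primary-only and 0.19 for mixed members, against 0.17 over all tested genes. For ESC-derived-only members it was higher, at 0.38, but 22 of these 74 ranked beyond 5000 in every primary library, as described below. No primary-only member was among the 100 highest of all 3 libraries of one primary group and of none of the other, but 1 mixed member was among those of all 3 adult libraries and of no fetal library. A miss of the threshold does not show that the levels were the same.

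Of the 21 members at an unadjusted p under 0.05 for fetal against adult, 20 were ESC-derived-only members with higher levels in fetal libraries, and 16 of those came from the 22 that ranked beyond 5000 in every primary library. Members of that class entered through their high ESC-derived levels, by which the 22 could also pass the filter on low counts. The primary counts of the 22 went down to 0. Nothing is therefore read from these p-values or from the DESeq2 calls above. The lowest adjusted p in that class was 0.552 by edgeR. By medians, the low levels of these 22 genes were higher in fetal replicates 1 and 2 than in the other primary libraries. As a percentage of the same gene's mean CPM in ESC-derived cultures, the median was 0.233% in fetal replicate 1 (interquartile range 0.180 to 0.291) and 0.289% in fetal replicate 2 (0.210 to 0.374). It was 0.0974% in fetal replicate 3, and 0.0528%, 0.0426% and 0.0731% in adult replicates 1, 2 and 3. The interquartile range of adult replicate 3, from 0.0359 to 0.314, covered the medians of fetal replicates 1 and 2. Fetal replicates 1 and 2 were both above all 3 adult libraries for 15 of the 22 genes. Both were above fetal replicate 3 for 17 of the 22.

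The median log2 fold change of fetal over adult for these 22 genes was 1.68, against -0.02 for the other 52 members of the class. With fetal replicates 1 and 2 both left out, the log2 ratio of fetal replicate 3 to the adult mean had a median of 0.42, in place of 1.71 for the mean of all 3 fetal libraries on the same CPM scale. The pair of members that were abundant through ESC-derived replicate 3 had another pattern, with 5.55 and 4.98 CPM in fetal replicate 3 against 0.981 to 2.08 CPM in fetal replicates 1 and 2. The limit of rank 5000 was chosen after the values were seen. Whether these low counts came from the labelled cultures was not tested.

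The 26 primary-only members that ranked beyond 5000 in every ESC-derived library also kept low levels there. Their median was 0.288%, 0.321% and 0.199% of the same gene's mean in primary cultures, in ESC-derived replicates 1, 2 and 3. These medians were near those of fetal replicates 1 and 2 above, and higher than those of the other 4 primary libraries. The smallest value of any of the 26 genes was 0.179%, 0.122% and 0.0592%, and the smallest count was 33, 23 and 10. Every one of these members therefore kept a measurable count in each ESC-derived library. Single counts cover counting error only, and PCR copies without molecular identifiers are not independent molecules.

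**Figure D5:**
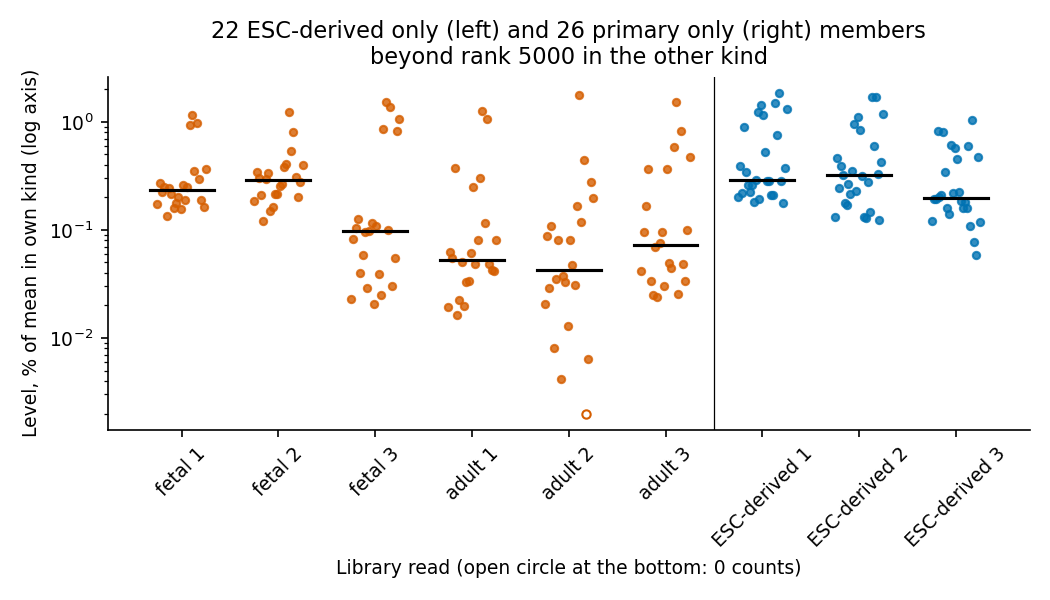
Level in each library of the other kind, as a percentage of the gene's mean CPM in its own kind (y axis, log), for the 22 ESC-derived-only members (left of the line) and the 26 primary-only members (right) that ranked beyond 5000 there, with black bars at the medians and an open circle for 0 counts. Fetal replicates 1 and 2 sit at medians of 0.233% and 0.289%, above the other 4 primary libraries at 0.0426% to 0.0974%.

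Abundant genes often held counts that were not whole, as happens when reads that match more than 1 transcript are divided between genes. A deposited value with any departure from a whole number was taken as fractional, with no tolerance. A fractional value in at least 1 library was found for 19 of the 34 core genes (55.9%), 28 of the 74 ESC-derived-only (37.8%), 29 of the 79 primary-only (36.7%) and 8 of the 21 mixed genes (38.1%). It was found for 25.02% of all tested genes and for 38.2% of the 1000 genes with the highest total counts. The levels of such members are uncertain where a near-identical copy could take part of the reads. The 4 genes named above held whole counts in every library.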

How the data were processed

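mRNA libraries were made with a stranded mRNA kit, per the labels' protocols. The authors deposited an estimated count per gene, with FastQC, Salmon and R 3.5.2 named in the submitters' processing notes, and not divided by depth or length. Annotation, genome build, Salmon version and summation to genes: not given in the sources used here.

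Counts were rounded and ranked within each library. CPM used library totals. edgeR 4.0.16 (TMM, filterByExpr, glmQLFit, glmQLFTest, Benjamini-Hochberg) in R 4.3.3 was fitted to all 9 libraries and 13462 genes as 3 group means, and tested on simulated data. SEs were derived from the F statistic. The p-values set each group difference against the spread between these lines. DESeq2 1.42.0, other scalings and filters, other numbers of rows and omission of each library were alternatives.

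The members and lists were chosen with earlier results of these data known. Identifiers shown are the 2 highest mean levels of the ESC-derived-only and of the primary-only class. The 8 gene lists and the marker genes need names and were not tested: 0 identifiers matched in the RefSeq gene table. No sequences or coordinates are given.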

Additional observations from a re-analysis of the deposited data

How the results depend on the processing

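Taking 50 rows per library in place of 100 gave 105 members: 14 in the core, 33 ESC-derived-only and 42 primary-only. Taking 200 gave 385: 78, 122 and 145, with 40 mixed. In ESC-derived and primary libraries the core then held 9.01% and 11.02% of counts at 50 rows and 18.5% and 23.4% at 200. ESC-derived-only members held 9.15% and 0.853% at 50 rows, and 14.7% of ESC-derived counts at 200. Primary-only members held 1.57% and 17.8% at 50 rows, and 2.99% of ESC-derived counts at 200. Ranking without rows of fractional counts gave 201 members, of which 124 were among the 208 and 77 had newly entered. Of its 31 core genes, 15 were in the core of 34 and 16 were not. The removal took out 84 of the 208 members and 19 of the 34 core genes. It can only raise the ranks of the rows kept, so every member and core gene without fractional counts stayed. The overlaps of 124 and 15 were therefore fixed by the number of fractional rows, and nothing is read from them. Leaving out rows at 10 counts or fewer, or none, changed no class.

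With 1 library at a time omitted there were 195 to 207 members, 34 to 36 core, 61 to 76 ESC-derived-only, 73 to 82 primary-only and 16 to 21 mixed. In ESC-derived and primary libraries the core's share ran from 13.2% to 14.2% and from 17.7% to 18.4%, that of ESC-derived-only members from 11.3% to 13.1% and from 1.38% to 1.83%, and that of primary-only members from 2.53% to 2.98% and from 20.0% to 21.7%. Members called between ESC-derived and primary libraries numbered 162 to 170 (66 to 71 higher, 94 to 101 lower), against 170 with all libraries (69 higher, 101 lower). Over all tested genes, 31.4% were called higher and 32.4% lower with all libraries. With 1 library omitted, 3801 to 4606 genes were called higher and 3661 to 4343 lower, of 13666 to 13848 tested. The members were selected on these counts, so nothing is read from these numbers. For fetal against adult, 0 to 1 members were called, the 1 without fetal replicate 3, beside 0 to 1 of all tested genes. DESeq2 called 6 members, beside 0.373% of the genes it tested. The cause was not tested. The 4 named genes kept their direction and call under each scaling, DESeq2, no filter and each omission, which for them were added after seeing the data, as was the omission of fetal replicates 1 and 2. No paired analysis was run, because the series description calls the lines independent and the replicate numbers used here do not pair lines across groups. Depth limits the members little in their own kind and most where the other kind held few counts.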
